A study of Mus musculus with 2 samples.

Results

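The genes examined here encode the enzymes that write, copy and remove 5-methylcytosine in DNA and a small set of proteins that read it. They were chosen by name as *Dnmt1*, *Dnmt3a*, *Dnmt3b*, *Uhrf1*, *Tet1*, *Tet2*, *Tet3*, *Mbd1* and *Mbd3*, which are 9 of the 24411 genes listed for each library. The tissue was fresh-frozen mouse brain of embryonic day 16.5, cut into sections 10 µm thick. From these sections the subventricular zone (SVZ), a germinal layer of dividing progenitors, and the cortex, to which the newborn neurons migrate, were excised by laser capture microdissection (LCM) and profiled by bulk RNA-seq. Each area gave 1 library, and no agent or engineered allele is named for either area. Neither the labels nor the methods of the study used here state strain, genotype, sex or how many embryos were cut. The outlines were drawn on stained sections, so each piece holds every cell type inside its outline.

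In mammals, methyl groups are placed on cytosine mostly where it is followed by guanine (CpG). Dnmt3a and Dnmt3b set new marks, while Dnmt1 copies existing marks onto the daughter strand after replication, brought there by Uhrf1, which recognises CpG sites methylated on a single strand. The Tet enzymes oxidise 5-methylcytosine to 5-hydroxymethylcytosine, a modified base that is abundant in neurons, and start its removal. Proteins with a methyl-CpG binding domain (MBD) link the mark to chromatin complexes.

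Gene-assigned reads numbered 51435667 for the SVZ library and 22050693 for the cortex library, which made the former 2.33 times deeper. Levels are given as CPM, reads of a gene per 1000000 gene-assigned reads. Differences are given as the log2 ratio of SVZ to cortex CPM with a 95% interval that covers counting error only, since several reads can come from 1 molecule where no molecular identifiers are counted. With 1 library per area there is no replicate check on any difference, and no test was run between the areas. In bulk samples, fewer cells of a type and less RNA per cell cannot be told apart. The markers set the SVZ piece, higher in progenitor genes, apart from the cortex piece, higher in neuronal genes. They cannot show that the SVZ piece was limited to that layer. The 10 apical progenitor genes and the 12 mitosis genes were each at least 2-fold higher in the SVZ (list medians 4.01 and 5.72, log2 ratios), as were the 7 intermediate progenitor genes (4.55), and 10 of 13 neuronal genes were at least 2-fold higher in the cortex, with a list median of -2.21. Other cell types also differed between the pieces. All 8 microglial genes were higher in the SVZ, with a summed level of 64.2 CPM against 6.80 CPM, and the 4 choroid plexus genes, of which *Folr1* and *Clic6* were at 0 reads in the cortex, summed to 248 CPM against 2.09 CPM. The part of these cells in the values below was not tested.

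All 9 members were read in both libraries and lay above the minimum of 1 CPM, averaged over both libraries, that 12738 genes passed. *Uhrf1* was the only member with a large difference, at 45.1 CPM in the SVZ and 2.09 CPM in the cortex. For the other 8 members the levels in SVZ and cortex were within 2-fold of each other. At this scaling only *Tet3* had a counting interval wholly on the cortex side. By the rule of size used in place of a test, 1 of 9 members was 2-fold or more higher in the SVZ, where 20.0% of the 12738 genes were, and 0 of 9 in the cortex, where 15.6% of all genes were. *Uhrf1* was also the single member past 4-fold on the SVZ side, against 10.2% of all genes, and no member passed 4-fold on the cortex side, against 7.01%. Within 1.5-fold of equal CPM were 6 of the 9 members and 45.2% of all genes. The interval lay wholly on the SVZ side for 6 members, against 48.2% of all genes, and wholly on the cortex side for 1, against 38.6%. The median log2 ratio was 0.51 over the members and 0.11 over all genes, whose quartiles were -0.56 and 0.76.

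**Figure D1:**
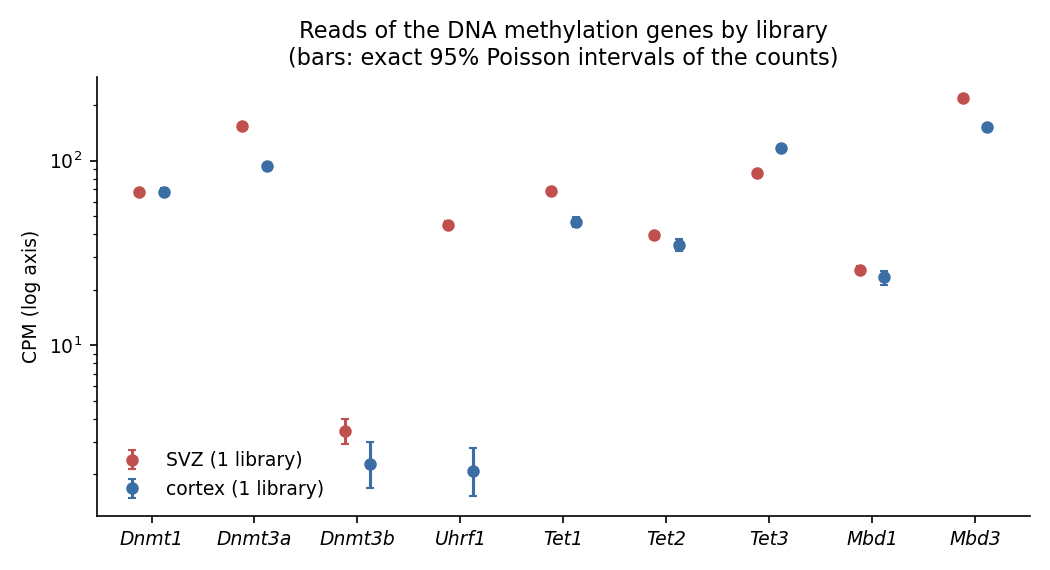
CPM (log axis) of each of the 9 genes in the SVZ (red) and the cortex library (blue), 1 point per library, with exact 95% Poisson intervals of the counts as bars. *Uhrf1* falls from 45.1 CPM in the SVZ to 2.09 CPM in the cortex, *Dnmt1* stays at 68.0 and 67.6 CPM, and *Tet3* is the only gene with its cortex point clearly above its SVZ point.

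The maintenance pair was examined first. *Dnmt1* (GRCm38 chromosome 9, 20907209 to 20959888, minus strand) had 3498 reads in the SVZ and 1491 in the cortex, or 68.0 and 67.6 CPM. These levels were nearly equal, a 1.01-fold difference with an interval from 0.946 to 1.07, and 45.4% of all genes had a lower SVZ-to-cortex ratio. *Uhrf1* (chromosome 17, 56303321 to 56323486, plus strand) had 2321 and 46 reads. Its level was thus 21.6-fold higher in the SVZ, with an interval from 16.2 to 29.6, and 96.9% of all genes had a lower ratio. Within the SVZ there were 66.4 *Uhrf1* reads for every 100 *Dnmt1* reads, and within the cortex 3.09. This read ratio was 21.5-fold higher in the SVZ (95% interval of the odds ratio 16.0 to 29.0). The ratio within a library depends on transcript length, but its change between libraries depends neither on length nor on the scaling of the libraries.

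Because maintenance methylation follows the replication fork, markers of S phase were set beside this pair. Of 15 such genes, 14 were at least 2-fold higher in the SVZ, and their median log2 ratio was 3.44, with a range from 0.97 to 5.54. *Uhrf1*, at 4.44 (4.01 to 4.89), lay inside that range, and *Dnmt1*, at 0.01 (-0.08 to 0.10), lay below its lower end. Per 1000 reads of the S phase list, *Uhrf1* had 16.7 reads in the SVZ and 5.04 in the cortex. *Dnmt1* had 25.1 and 164 on this scale. The scale gives most weight to the most read genes of the list. Of its 9119 reads in the cortex, *Pcna* had 1986 and *Mcm7* 1858. Per 1000 reads of the mitosis list, both genes were lower in the SVZ, *Uhrf1* with 17.9 reads against 43.6 in the cortex and *Dnmt1* with 27.0 against 1410, so the direction for *Uhrf1* depended on which list of dividing cells was used. Per 1000 reads of the neuronal list, *Dnmt1* had 17.3 and 5.82 reads and *Uhrf1* 11.5 and 0.179, in SVZ and cortex respectively.

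**Figure D2:**
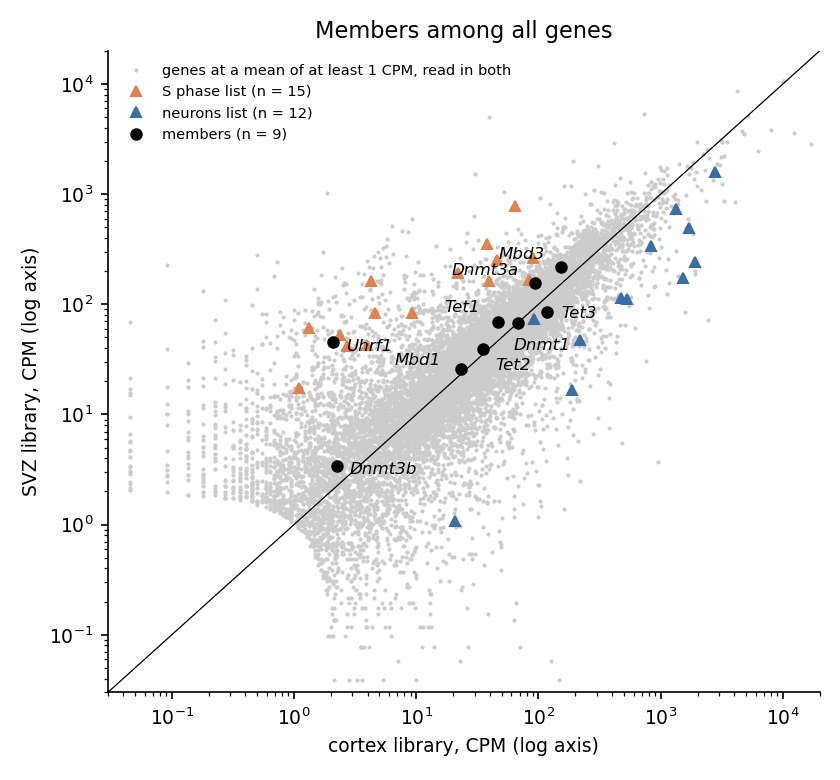
Level of each gene in the SVZ (y axis, CPM, log axis) against the cortex library (x axis, CPM, log axis), for genes read in both libraries whose CPM averaged 1 or more. The line marks equal CPM. Black points are the 9 members, orange triangles the 15 S phase genes and blue triangles the 12 neuronal genes read in both, and *Uhrf1* sits among the S phase genes while the other 8 members lie near the line.

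The sequences around the start sites were compared for *Uhrf1* and *Dnmt1*, because this pair acts in the same step but differed in ratio. The promoter sequences are those of RefSeq on GRCm38.p6, from 250 bases before to 50 bases after each start, and covered 8 of the 9 members with 13 starts. A word bound by E2F factors, which drive genes of S phase, was searched on both strands as TTTCCCGC, TTTCGCGC, TTTGCCGC or TTTGGCGC. It was present in 2.26% of 32851 promoters and in 2 of the 13 member promoters, 1 of *Uhrf1* and 1 of *Dnmt1*, in each case as TTTCGCGC. Each of these words lay before the start furthest downstream among those listed for its gene. The other listed starts of *Uhrf1* and *Dnmt1* lacked the word. Reads were not divided by start site, so the word cannot be tied to the transcripts counted. The *Uhrf1* word began 185 bases before the start and the *Dnmt1* word, on the opposite strand, 219 bases before the start. The 30 bases centred on each word are shown along the strand of the gene, with the word in capitals, so that the *Dnmt1* word appears as its reverse complement. They lie at chr17:56304117-56304146 on the plus strand for *Uhrf1* and at chr9:20952824-20952853 on the minus strand for *Dnmt1*.
Uhrf1: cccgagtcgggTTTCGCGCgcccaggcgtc
Dnmt1: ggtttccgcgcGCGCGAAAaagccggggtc

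The *Dnmt1* word lies in the first exon of 2 annotated *Dnmt1* transcripts that start further upstream. The *Uhrf1* window overlaps no annotated *Uhrf1* exon, and all 250 bases before that start (chr17:56304063-56304312, plus strand) are shown to give the context of the word, with the E2F word and the CCAAT words in capitals.
Uhrf1 upstream: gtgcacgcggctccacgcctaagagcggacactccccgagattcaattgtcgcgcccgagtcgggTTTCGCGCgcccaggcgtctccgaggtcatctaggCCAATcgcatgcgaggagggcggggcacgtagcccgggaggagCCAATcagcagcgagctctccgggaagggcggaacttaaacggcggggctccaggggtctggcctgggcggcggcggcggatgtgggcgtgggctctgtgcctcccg

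In this stretch CCAAT stands at 2 places on the plus strand, both between the E2F word and the start. CCAAT, the word bound by NF-Y, was found on either strand in 37.4% of all promoters and in 6 of the 13 member promoters, which belong to 4 genes (*Dnmt1*, *Uhrf1*, *Tet3* and *Mbd3*). The promoters of *Uhrf1* and *Dnmt1* with the E2F word both held CCAAT, so neither word was particular to one gene of the pair. A match describes these letters only. Each of the searched E2F words itself holds CpG, and the share of all promoters with such a word was not matched for CpG content. Most member promoters held more CpG than the median promoter, in a comparison that was not limited to genes read in these libraries. The count of CpG in 300 bases ranged from 2 to 57 with a median of 22, against a median of 7 over all promoters, and it was above that median in 12 of 13. These 13 belong to 8 genes and are not independent, since the *Dnmt3a* windows with 46 and 47 CpG share bases. The highest count, 57, belonged to *Tet2*, and the lowest, 2, to the most upstream start of *Dnmt1*.

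Turning to the enzymes that place new methyl groups, *Dnmt3a* (chromosome 12, 3806007 to 3914443, plus strand) had 7976 reads in the SVZ and 2061 in the cortex, or 155 and 93.5 CPM. The SVZ level was 1.66-fold higher (1.58 to 1.74). *Dnmt3b* (chromosome 2, 153649450 to 153687730, plus strand) was read far less, with 176 and 50 reads, or 3.42 and 2.27 CPM. Its 1.51-fold higher level in the SVZ had a wide interval, from 1.10 to 2.11. No shift between the de novo enzymes was detectable at this depth: the read ratio of *Dnmt3b* to *Dnmt3a* was 2.21 per 100 reads in the SVZ and 2.43 in the cortex, a log2 change of -0.14 (-0.60 to 0.32). *Dnmt3a* did shift against *Dnmt1*, from 228 reads per 100 *Dnmt1* reads in the SVZ to 138 in the cortex, a 1.65-fold difference (1.53 to 1.78). For *Dnmt3b* against *Dnmt1* the log2 change was 0.59 (0.12 to 1.05). *Dnmt3a* was counted as a single gene with 18 annotated transcripts, so that long and short forms of the enzyme were not told apart, and 133 bases of its exons are shared with the antisense gene *Dnmt3aos*, which had 1 read in each library.

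To compare levels between the enzymes, reads were divided by the length of the longest annotated transcript. On this per-length scale *Dnmt3a* made up 56.4% (55.4 to 57.4) of the DNMT reads in the SVZ and 44.5% (42.9 to 46.1) in the cortex. *Dnmt1* made up 40.8% (39.8 to 41.8) and 53.1% (51.4 to 54.8). *Dnmt3b* stayed a minor form, at 2.79% and 2.42%. The leading enzyme was therefore *Dnmt3a* in the SVZ and *Dnmt1* in the cortex. With the summed length of all exons in place of the longest transcript, *Dnmt3a* held 48.5% and 36.9%, again lower in the cortex, and lay close to *Dnmt1* in the SVZ (9.32 and 9.22 reads per kilobase per 1000000).

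*Tet1* and *Tet3* differed between the areas in opposite directions. *Tet1* (chromosome 10, 62804570 to 62908996, minus strand) had 3545 reads in the SVZ and 1029 in the cortex, or 68.9 and 46.7 CPM, and was 1.48-fold higher in the SVZ (1.38 to 1.58). *Tet3* (chromosome 6, 83362373 to 83459084, minus strand) had 4412 and 2585 reads, or 85.8 and 117 CPM. It was the member with the higher level in the cortex, by 1.37-fold (1.30 to 1.43). *Tet2* (chromosome 3, 133463679 to 133545139, minus strand) lay between them with 2026 and 773 reads, or 39.4 and 35.1 CPM. The log2 ratio of 0.17 (0.05 to 0.29) had an interval that reached equal CPM under TMM scaling, where the ratio was 0.08, under DESeq2 size factors and upper-quartile scaling, where it was 0.07, and with the SVZ library thinned to the cortex total, where it was 0.13.

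Within the libraries the balance of the Tet genes moved from *Tet1* to *Tet3*. There were 80.3 *Tet1* reads per 100 *Tet3* reads in the SVZ and 39.8 in the cortex, a 2.02-fold difference (1.85 to 2.20). *Tet2* moved against *Tet3* in the same direction by 1.54-fold (1.40 to 1.69), and *Tet1* against *Tet2* by 1.31-fold (1.18 to 1.46). Each of these intervals excluded an unchanged ratio, and they carry no error of library scaling. Per length, *Tet3* held 46.4% (45.4 to 47.4) of the TET reads in the SVZ and 60.3% (58.9 to 61.8) in the cortex, and *Tet1* held 28.3% and 18.2%. The summed per-length level of the family was nearly the same in both, 17.0 reads per kilobase per 1000000 in the SVZ and 17.8 in the cortex. *Tet1* reads were not divided by start site, and 43 bases of the *Tet2* exons are shared with the antisense gene *Gm42567*.

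**Figure D3:**
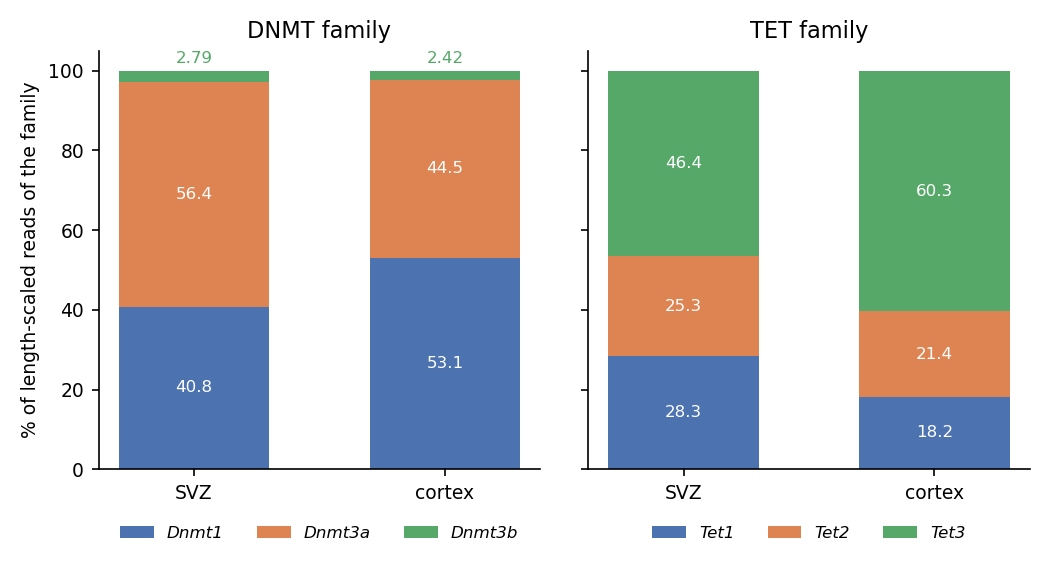
Share (% of length-scaled reads) of each gene within the DNMT family (left) and the TET family (right) in the SVZ and cortex libraries, 1 library per bar. *Dnmt3a* holds 56.4% of DNMT reads in the SVZ and 44.5% in the cortex, and *Tet3* holds 46.4% and 60.3% of TET reads.

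Of the readers, *Mbd3* is a subunit of the nucleosome remodelling and deacetylase complex NuRD, and its domain has little preference for methylated CpG, whereas *Mbd1* binds methylated CpG. *Mbd3* (chromosome 10, 80392539 to 80399550, minus strand) had 11214 reads in the SVZ and 3377 in the cortex, or 218 and 153 CPM, and was 1.42-fold higher in the SVZ (1.37 to 1.48). *Mbd1* (chromosome 18, 74267605 to 74282732, plus strand) had 1316 and 514 reads, or 25.6 and 23.3 CPM. A difference in *Mbd1* was not detectable at this depth, with a log2 ratio of 0.13 (-0.01 to 0.28). The read ratio of *Mbd1* to *Mbd3* was 11.7 per 100 in the SVZ and 15.2 in the cortex, a log2 change of -0.38 (-0.53 to -0.22).

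Across all members the per-length order was led by *Mbd3* in both libraries, at 131 and 92.1 reads per kilobase per 1000000. In the SVZ library it was followed by *Dnmt3a* (16.0), *Uhrf1* (12.6), *Dnmt1* (11.6), *Tet3* (7.87), *Mbd1* (6.53), *Tet1* (4.80), *Tet2* (4.29) and *Dnmt3b* (0.792). No neighbours in that order had overlapping counting intervals. In the cortex library the order after *Mbd3* was *Dnmt1* (11.5), *Tet3* (10.8), *Dnmt3a* (9.65), *Mbd1* (5.95), *Tet2* (3.82), *Tet1* (3.25), *Uhrf1* (0.582) and *Dnmt3b* (0.525). There the intervals of *Dnmt1* and *Tet3* overlapped, as did those of *Uhrf1* and *Dnmt3b*. *Uhrf1* thus dropped from the third place to the level of the least read member, and *Mbd3* and *Dnmt3b* kept the first and last place. With the summed exon length, *Uhrf1* stood above *Dnmt3a* in the SVZ.

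Other genes of the methylation machinery were then described by lists of related genes, 72 in all, of which 67 had a mean of at least 1 CPM. At least 2-fold higher were 15 of the 67 in the SVZ and 2 in the cortex, against the 20.0% and 15.6% of all genes given above, and their median log2 ratio was 0.24. Among 7 partners of maintenance methylation, 5 were at least 2-fold higher in the SVZ, and the list median was 3.19, with a range from -0.25 to 5.04. *Hells*, the remodeller that opens chromatin for methylation, was at 4.41 (4.17 to 4.67), from 6659 and 134 reads. *Cdca7*, which recruits *Hells*, was at 5.04 (4.74 to 5.35), from 7117 and 93 reads. *Lig1*, the ligase that joins Okazaki fragments, was at 3.19 and *Pcna*, the replication clamp, at 1.55. *Pcna* is also 1 of the S phase genes used above. *Ctcf*, an insulator protein whose binding is sensitive to methylation, was at 0.22 (0.15 to 0.29). *Usp7*, a deubiquitinase that binds Dnmt1 and Uhrf1, was at -0.25 (-0.32 to -0.18), with the higher level in the cortex. *Uhrf2*, the paralogue of *Uhrf1*, was at 0.01 (-0.08 to 0.10), from 3551 and 1512 reads, so the paralogues differed in ratio by far more than their counting error.

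Of 8 other methyl-CpG readers, 1 was past 2-fold in the SVZ and 0 in the cortex, against 20.0% and 15.6% of all genes. The list median was 0.22. The intervals of these readers lay wholly on the SVZ side for 4 and on the cortex side for 2, against 48.2% and 38.6% of all genes. The gene past 2-fold was *Mbd4*, a DNA glycosylase that repairs deaminated methyl-CpG, at 1.16 (0.96 to 1.36). *Mbd6* was at 0.60 (0.24 to 0.97) and *Mbd5* at -0.59 (-0.78 to -0.40). Among 12 NuRD subunits, partners of *Mbd3*, 4 were at least 2-fold higher in the SVZ and 1 in the cortex, with a median of 0.35. These counts stand beside the same 20.0% and 15.6% of all genes. Some paralogous subunits had ratios of opposite sign, and others did not. The deacetylase *Hdac1* was at 2.07 (1.94 to 2.20) and *Hdac2* at -0.18 (-0.21 to -0.15), while the remodeller *Chd4* was at 0.35 (0.29 to 0.41) and *Chd3* at -1.01 (-1.08 to -0.95). *Rbbp7*, *Mta3* and *Cdk2ap1* were the other subunits past 2-fold in the SVZ, at 1.08, 1.36 and 1.81. The paralogues *Rbbp4* (0.32), *Mta1* (0.31) and *Mta2* (0.78) were also higher in the SVZ.

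Downstream of the Tet enzymes, oxidised bases are cut out by glycosylases and the gap is refilled by base excision repair. Of 11 genes above the minimum, 2 were past 2-fold in the SVZ and 1 in the cortex, against 20.0% and 15.6% of all genes. The median of this list was 0.46. The glycosylase *Neil3*, which acts mainly on replicating DNA, had 3665 reads in the SVZ and 5 in the cortex, a log2 ratio of 8.30 (7.07 to 9.92). *Gadd45g*, a stress sensor linked to demethylation and also a marker of intermediate progenitors, had 17531 and 321 reads and a ratio of 4.55 (4.39 to 4.71). *Gadd45b*, with 23 and 37 reads, was at -1.91 (-2.73 to -1.12). *Parp1* and *Polb*, which serve repair in most cells, were at 0.06 and -0.06. The glycosylase *Tdg*, which excises the oxidised forms made by Tet enzymes, had 10 reads in the SVZ and 1 in the cortex. It shares exon sequence with a gene on the other strand and had 53 and 17 reads in the summed strand-separated columns, and reads that map equally well to its pseudogene *Tdg-ps* would have been left out of its count. In the list of Tet and CXXC partners, 1 of 9 genes was 2-fold or more higher in the SVZ and 0 in the cortex. The median was -0.17, and the shares over all genes were again 20.0% and 15.6%. *Ogt*, the sugar transferase that binds Tet proteins, was at -0.05, *Cxxc5* at 1.29 and *Cxxc4* at -0.88. Of the genes that make the co-substrate of Tet enzymes, *Idh1* was at -0.62, *Idh2* at 0.96 and *Idh3a* at 0.07.

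Finally, the supply of methyl groups and the upkeep of methylation at imprinted and repeated regions were examined. Of 10 methyl donor genes, 2 were past 2-fold in the SVZ and 0 in the cortex, against 20.0% and 15.6% of all genes. Among the 2 was the folate enzyme *Shmt1*, at 2.20 (1.92 to 2.50). *Mat2a*, which makes S-adenosylmethionine, the methyl donor of all DNMT enzymes, was at 0.15 and *Ahcy*, which clears its product, at 0.63. None of the 8 genes read in the list of imprinted and repeated regions was 2-fold apart, and the list median was -0.20. *Zfp57*, which keeps methylation at imprinting control regions, was at -0.80 (-0.84 to -0.76), *Zfp445*, with a similar role, at -0.49 and their cofactor *Trim28* at -0.23. Besides *Tdg*, several related genes named here share exon bases with a gene on the other strand in GENCODE M21. These are *Lig1*, *Rbbp4*, *Rbbp7*, *Ctcf*, *Mbd4*, *Mbd5*, *Polb*, *Cxxc4*, *Cxxc5*, *Mat2a*, *Shmt1* and *Dnmt3l*. Reads in shared bases can be left out of a count. The summed strand-separated reads of *Mat2a* were 14275 in the SVZ, against 13353 counted. For *Ctcf*, *Mbd4*, *Mbd5* and *Cxxc5* the 2 values were equal in both libraries, so no such loss was seen.

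**Figure D4:**
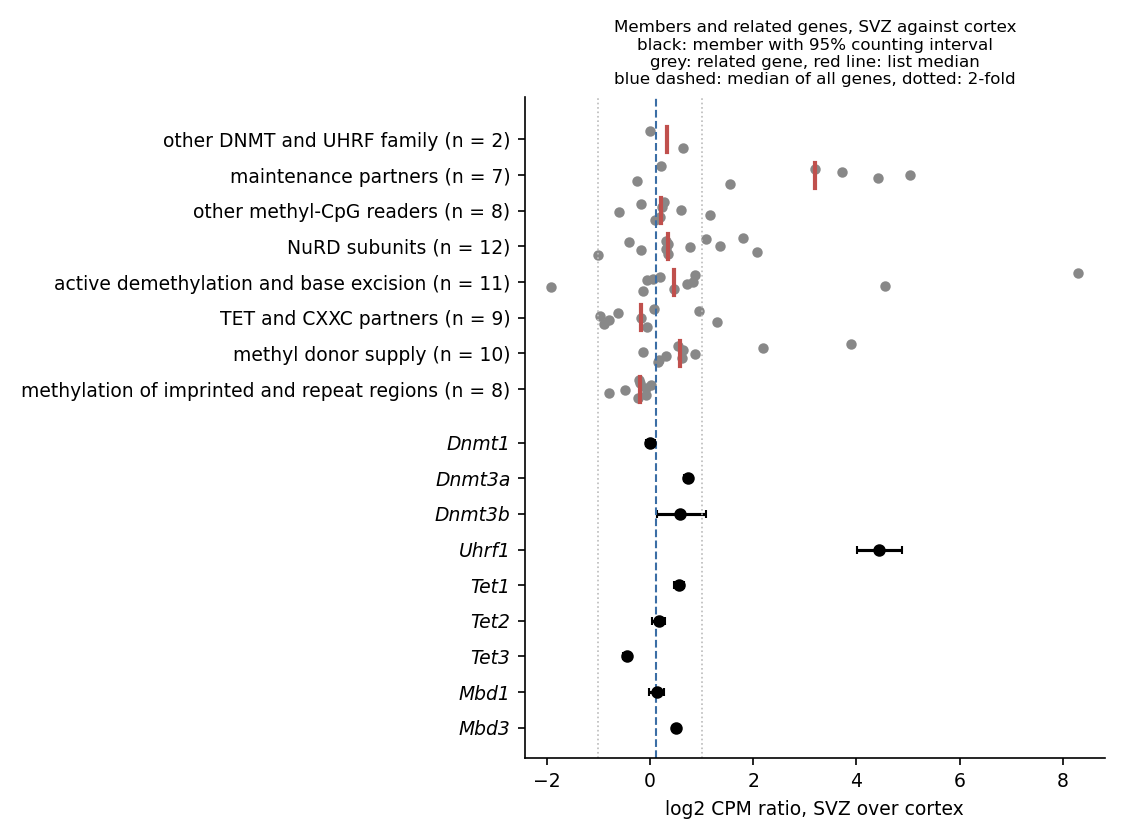
Log2 CPM ratio of SVZ over cortex for the 9 members (black, with 95% counting intervals) and for the genes of 8 related lists (grey, list median in red). The dashed line is the median of all genes, 0.11, and the dotted lines mark 2-fold. *Uhrf1* is at 4.44, the 7 maintenance partners spread from -0.25 to 5.04, and the other 8 members lie inside the dotted lines.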

How the data were processed

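LCM and bulk RNA-seq of the SVZ and the cortex of embryonic day 16.5 mouse brain gave 2 libraries, prepared with a low-input kit. The authors trimmed adapters with cutadapt 4.1, mapped read 1 to mm10 (equal to GRCm38) with STAR 2.7.9a, and deposited whole read counts per gene. No source used here states molecular identifiers or removal of duplicates. STAR drops reads that map to several places or overlap several genes, which lowers the counts of such genes. A joint table that the authors deposited repeats these counts with their own CPM, fold change and log10 ratio, and was not used.

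The unstranded counts were scaled to CPM on the total of gene rows. The 4 lines of unassigned reads were left out of the totals, and 59.0% of SVZ reads and 59.1% of cortex reads were assigned to genes. Log2 ratios had no pseudocount and exact 95% Clopper-Pearson intervals from the share of a gene's reads in the SVZ. Pairs of genes were compared by the log odds ratio of their reads with a Wald interval, and shares of a family by a delta-method interval. The floor under a count of 0 was 3 reads (0.0583 CPM for SVZ, 0.136 CPM for cortex). Genes are named if they are members, belong to the lists of related or marker genes, or are 1 of the 2 nearest genes to a member by level. *Dnmt3aos*, *Gm42567* and *Tdg-ps* are outside that rule and were named after the values were seen, for their overlap or likeness to named genes. Some genes of the related lists are counted with their lists but are not reported here by name. The members and lists were chosen with earlier results of these data known.

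Symbols were looked up in GENCODE M21 (GRCm38) for positions and transcript lengths. Alternatives were scaling by edgeR 4.0.16 (TMM, upper quartile) or by the size factors of DESeq2 1.42.0, totals that leave out the 10 genes with most reads, the sum of the 2 stranded columns, a thinned SVZ library, a pseudocount, other minimums and folds, and another transcript length. The work used R 4.3.3, Python 3.11.15, scipy 1.17.1, numpy 2.4.6, matplotlib 3.10.9 and pandas 2.3.3. The interval procedure was run on simulated Poisson counts, which hold only the counting error that the interval assumes. They hold no duplicate reads and no variation between embryos, so they cannot check the intervals against either.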

Additional observations from a re-analysis of the deposited data

How the results depend on the processing

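No paired analysis was possible because SVZ and cortex were each sequenced as a single library, so none could be left out. The log2 ratio of *Uhrf1* ranged from 3.90 (pseudocount of 1 CPM) to 4.48 over the alternatives, that of *Dnmt3a* from 0.63 to 0.73, *Dnmt3b* 0.44 to 0.70, *Tet1* 0.46 to 0.56, *Tet2* 0.07 to 0.16, *Tet3* -0.55 to -0.43, *Mbd1* 0.04 to 0.13, *Mbd3* 0.41 to 0.51 and *Dnmt1* -0.09 to 0.01. Scaling moved the median of all genes by -0.102 (log2, upper quartile), -0.096 (TMM) and -0.0942 (DESeq2). Such scaling shifts the ratio of every gene by the same amount, so it cannot check the place of a member relative to that median. With the upper quartile the *Dnmt1* interval (-0.18 to -0.00) lay on the cortex side, and *Dnmt1* was at -0.08 with TMM and DESeq2 scaling. The count of members past 2-fold on the SVZ side was 1 under each scaling and count column, and 3 with a 1.5-fold rule, which added *Dnmt3a* and *Dnmt3b*. Of the related genes, 2 were 2-fold higher in the cortex, 1 with a pseudocount of 1 CPM or a minimum of 10 CPM, and 3 with TMM, upper-quartile or DESeq2 scaling or no minimum. On the SVZ side there were 15, and from 14 to 16 over the alternatives. The summed exon length moved the per-length shares, *Dnmt3a* from 56.4% to 48.5% (SVZ) and from 44.5% to 36.9% (cortex), and *Tet3* from 46.4% to 43.1% and from 60.3% to 57.9%, since it counts exons of every annotated transcript. Depth limits *Dnmt3b* and the cortex level of *Uhrf1*, each on 50 reads or fewer in the cortex.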

Other observations

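The genes nearest to each member in level were sought by distance between log2 CPM values. With 2 libraries this measures likeness of 2 levels only. Nearest to *Uhrf1*, at distances of 0.065 and 0.19, were *Pon2* (43.4 CPM in the SVZ and 2.13 CPM in the cortex) and *Cenpn*, a centromere protein of dividing cells (50.6 and 2.22 CPM). Only 1 gene lay within 0.1 of *Uhrf1*, whereas 36 lay within 0.1 of *Dnmt1*, of which the nearest were *Mier1* (68.2 and 68.4 CPM) and *Cars* (68.0 and 68.8 CPM). Nearest to *Tet3* were *0610012G03Rik* (87.3 and 119 CPM) and the ubiquitin ligase *Rnf138* (86.8 and 114 CPM). *Tet1* was nearest to *Fundc2* (70.1 and 47.0 CPM) and *Rps10*, and *Tet2* to *Rassf1* (39.1 and 34.8 CPM).

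Some regulators of methylation had no reads. *Dnmt3l*, the inactive cofactor of the de novo enzymes in germ cells, *Dppa3*, which guards methylation in the early embryo, and *Morc1*, which silences transposons in male germ cells, were at 0 reads in both libraries, which allows up to 0.0583 CPM in the SVZ and 0.136 CPM in the cortex. *Trdmt1*, a family member that methylates RNA, was at a log2 ratio of 0.64 (0.42 to 0.87), from 747 and 205 reads.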
